A study of Mus musculus with 16 samples.

Results

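Mouse zygotes received double-stranded RNA against Suv39h2 (6 libraries, called knockdown here) and were compared as 2-cell embryos with ones given double-stranded RNA against LacZ (6 libraries, called LacZ control). LacZ is a bacterial gene that mouse cells lack, so its double-stranded RNA controls for the injection. The comparison takes 12 of the 16 samples of the study, and the other 4 are embryos that were not injected. Every gene with a mean normalized count of at least 10 over libraries was kept, which was 14830 of the 49585 genes listed, together with 865 of 1153 repeat elements. KSOM medium was used for culture in all groups, and the embryos came from F1 females (C57BL/6J × CBA/H) and DBA males. Polyadenylated RNA was amplified by Smart-seq2. The design text speaks of pools of 5 embryos for a library, and the extraction protocol of a single embryo. The treatment protocol also names Suv39h1 messenger RNA, which the labels of these groups do not list.

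SUV39H2 is 1 of a pair of closely related enzymes, with SUV39H1, that add methyl groups to lysine 9 of histone H3 (H3K9). The trimethylated form binds HP1 proteins and marks constitutive heterochromatin, above all the satellite repeats around centromeres. At fertilization the paternal genome largely lacks this mark, the embryo's own genome is switched on during the first cleavages, and RNA stored in the egg is degraded over the same time. Long double-stranded RNA is cut by Dicer into short pieces that direct the destruction of matching transcripts, a method that works in mouse oocytes and zygotes.

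All values of single genes and repeats are from the authors' deposited table of knockdown against LacZ control, made with DESeq2. A difference is given as log2 of knockdown over LacZ control ± its standard error, and a gene is called when the deposited adjusted p is under 0.05. The authors' deposited table lists Gm43908 and Gm43571 just inside the minimum count of 10, with log2 values of -0.25 and 0.14, and Tfec and Gm6863 just outside it, with 0.55 and -0.19. The tables hold means over libraries and no value of a single library, so the spread between libraries is known only through the standard error and the depth of each library is unknown. Labels do not say whether the 6 libraries of a group came from separate injection days, so the p-values measure the spread between these libraries. Each library is bulk RNA of whole embryos, and fewer cells with a transcript cannot be told apart from less RNA per cell. Of 16 cumulus and granulosa cell markers, 13 had a mean count under 10 and 2 were listed at 0, and the highest was Tnfaip6 at 36.5. Of 10 sperm transcripts, 9 were under 10, and Ldhc was highest at 54.8. Of 49 genes typical of the 2-cell stage, 44 had a mean count of 10 or more, up to 5659 for Klf17.

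Suv39h2 messenger RNA in knockdown libraries stood at 25.9% of the LacZ control level in the authors' deposited table (95% normal interval 17.7% to 37.8%). Against non-injected embryos it stood at 28.8% in the authors' deposited table (19.4% to 42.8%). Its log2 fold change of -1.95 ± 0.28 in the authors' deposited table was the lowest of all 14830 genes (DESeq2, adjusted p = 4.72e-08). Its position in GRCm38 is chromosome 2, 3455815 to 3475031, minus strand.

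None of the other 8 H3K9 methyltransferases measured was called, where 0.944% of all genes were. The paralog Suv39h1 stood at -0.33 ± 0.19 in the authors' deposited table. Setdb1, which silences retroviral repeats, stood at -0.39 ± 0.22 in the authors' deposited table, and Setdb2 at -0.30 ± 0.18. The authors' deposited table gave -0.16 ± 0.20 and -0.05 ± 0.25 for Ehmt1 and Ehmt2, the pair that dimethylates H3K9 in gene-rich chromatin. Prdm2 stood at -0.31 ± 0.22, Mecom at -0.29 ± 0.28 and Prdm16 at 0.58 ± 0.36 in the authors' deposited table. These 8 values ranged over less than 1 on the log2 scale, and 7 of them were below 0, with no unadjusted p under 0.05. The share of all genes with an unadjusted p under 0.05 was 15.1%, so few could be looked for among 8.

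Genes that could share a target with the injected RNA were looked up by sequence. The sequence of the double-stranded RNA was not used here, since the labels do not give it. The 4 annotated transcripts of Suv39h2 hold 4423 different words of 21 bases, about the length of a Dicer product. Of the genes kept, 32 had a transcript with at least 1 of these words on the same strand. Among all genes kept, 0.944% were called and 15.1% had an unadjusted p under 0.05, so few calls could be looked for among 32. None of the 32 was called by DESeq2, 3 had an unadjusted p under 0.05, and 16 were below 0. Their log2 fold changes ran from -0.59 to 0.58 in the authors' deposited table, with a median of 0.00. On the opposite strand 27 genes kept had at least 1 such word, Dclre1c (below) among them, and 0 were called by DESeq2. The longest run shared by a Suv39h2 and a Suv39h1 transcript was 26 bases, shown here because it holds all 6 words that the pair of genes share.

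Suv39h2 and Suv39h1: cacctacctctttgacctggactacg

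Dclre1c, the nuclease Artemis of DNA end joining, overlaps Suv39h2 exons on the opposite strand and shared 290 words in that orientation. It stood at -0.97 ± 0.34 in the authors' deposited table (unadjusted p = 0.00501, adjusted p = 0.127), the lowest value within 500 kb of Suv39h2 after the target itself. Reads from the overlap cannot be assigned to 1 of these genes without strand, and the sources used here do not give the counting as stranded. Hspa14, a heat shock protein gene 13819 bases away, stood at -0.53 ± 0.20 in the authors' deposited table (DESeq2, adjusted p = 0.164). Further off, Nmt2 stood at -0.37 ± 0.28, Fam107b at 0.21 ± 0.20 and Olah at 0.01 ± 0.22 in the authors' deposited table. No neighbour within that window was called in knockdown against LacZ control. Against non-injected embryos, Dclre1c (-1.17 ± 0.35) and Hspa14 (-0.58 ± 0.21) were called lower in knockdown (DESeq2, adjusted p = 0.0142 and 0.0465). Fam107b (0.64 ± 0.21) was called higher there (DESeq2, adjusted p = 0.0235), all in the authors' deposited table. In that comparison 15.3% of all genes were called.

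Of 9 predicted genes with satellite-like sequence, 2 were called in the gene table, both lower in knockdown. They are called satellite genes here and were grouped by sequence shared with Gm10801. Their transcripts were not compared with a consensus of the satellite. Major satellite DNA is the main repeat of mouse pericentromeric heterochromatin, where SUV39H enzymes act. The name of the gene table states its direction. Gm10801, a predicted gene on chromosome 2 (98662237 to 98664083), was called at -1.67 ± 0.32 (DESeq2, adjusted p = 0.00385), the second lowest value of all genes in the authors' deposited table. Gm10717, on chromosome 9 (3025417 to 3033289, plus strand), was called at -1.35 ± 0.37 in the authors' deposited table (DESeq2, adjusted p = 0.0488). The call of Gm10717 ended when p-values were adjusted over every gene that has one (adjusted p = 0.0797), and that of Gm10801 did not (0.00192). These predicted genes were looked up after their values were seen.

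Of the annotated transcripts of Gm10717, the one most like itself at any shift from 150 to 300 bases is 669 bases of coding exons, and its best shift is 234 bases, the unit length of the major satellite. Its bases 64 to 297 and 298 to 531 are shown because they are its most alike adjacent stretches of that length. These tandem copies are identical at 228 of 234 positions (97.4%). At the same shift, 69.7% of positions were identical over the whole transcript. Transcripts of the other genes were not examined in this way. Capitals mark the 6 positions at which the copies differ.

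Gm10717 unit 1: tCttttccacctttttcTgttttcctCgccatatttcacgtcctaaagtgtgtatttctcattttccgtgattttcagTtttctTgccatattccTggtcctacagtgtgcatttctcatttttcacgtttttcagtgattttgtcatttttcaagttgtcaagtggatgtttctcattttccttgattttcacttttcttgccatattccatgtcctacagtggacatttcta
Gm10717 unit 2: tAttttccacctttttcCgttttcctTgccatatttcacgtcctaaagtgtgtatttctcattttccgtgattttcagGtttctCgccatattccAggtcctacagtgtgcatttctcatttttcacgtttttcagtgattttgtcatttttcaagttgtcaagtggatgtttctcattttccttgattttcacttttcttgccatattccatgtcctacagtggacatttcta

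With Gm10801 itself, 13 genes in the table had transcripts that shared at least 50 words of 21 bases with it on either strand, and 9 of these had a mean count of 10 or more. All 9 were below 0, from -1.67 to -0.46 with a median of -1.02 in the authors' deposited table, 2 were called lower, and 7 had an unadjusted p under 0.05. Over all genes the median was 0.01. The lowest of the 9 values and a call are those of Gm10801, which defined the set after its value was seen. Without it the values ran from -1.35 (Gm10717) to -0.46 (Gm10719) in the authors' deposited table. The 9 genes share sequence and may share reads, which was not tested, so they cannot be taken as independent of each other. Gm21738 on chromosome 14 stood at -0.95 ± 0.34 and Gm10800, next to Gm10801, at -0.67 ± 0.38 in the authors' deposited table. Against non-injected embryos all 9 were again below 0, with a median of -0.62 in the authors' deposited table and none called by DESeq2. In LacZ control against non-injected embryos, 8 of the 9 were above 0 and none was called. The comparisons share their libraries in pairs, so the values stand side by side and are not separate evidence.

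Headers of the repeat tables do not say which group is over which, and the names put the groups in the reverse order of the gene tables. Their values were read as knockdown over LacZ control because GSAT_MM, the consensus of the major satellite, then has the sign of the satellite genes, so that shared sign is a choice and no support for them. Another RNA listed in both kinds of table gives little more. The small nuclear RNA 7SK, so read, stood at -0.22 in the authors' deposited repeat table, and its gene Rn7sk, under the minimum count, at -0.23 in the authors' deposited gene table, neither with an unadjusted p under 0.05. Under the other reading the sign of every repeat value turns, while sizes and p-values stay.

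Under the reading taken, GSAT_MM was called at -1.14 ± 0.28 in the authors' deposited table (DESeq2, adjusted p = 0.0182), the only repeat past a log2 size of 1. Its reads and those of the 9 genes may overlap, so it is not independent of them. Against non-injected embryos GSAT_MM was called at -0.92 in knockdown (DESeq2, adjusted p = 0.0231) and stood at 0.37 in LacZ control (DESeq2, adjusted p = 0.548) in the authors' deposited tables, both under the same reading.

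**Figure D1:**
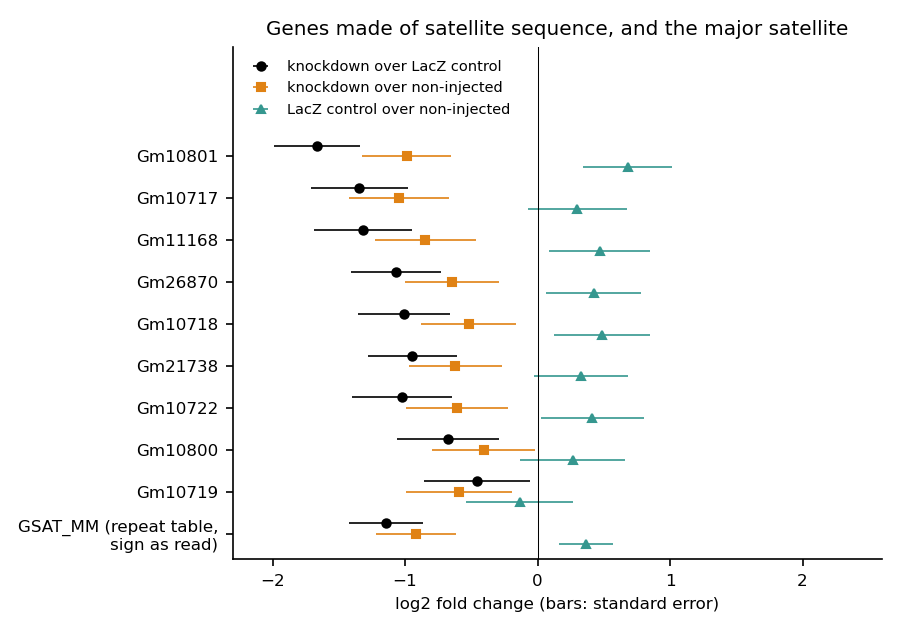
Log2 fold changes (horizontal axis, bars give the standard error) of the 9 genes with satellite-like sequence and of GSAT_MM, in knockdown over LacZ control (circles), knockdown over non-injected (squares) and LacZ control over non-injected (triangles). Circles lie from -1.67 to -0.46, squares lie below 0 for all 10, and triangles lie above 0 for all but Gm10719. The signs of GSAT_MM are as read and not stated by its tables.

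The other 4 satellite entries were not called. MMSAT4, the most counted satellite in the repeat table, stood at -0.15 ± 0.24 in the authors' deposited table. ZP3AR stood at -0.28 ± 0.20 and IMPB_01 at 0.40 ± 0.19 in the authors' deposited table, the second with an unadjusted p of 0.0279. All signs of repeats here are under that reading. SYNREP_MM had a shrunken value of -0.64 ± 0.30 but an unadjusted p of 0.796 in the authors' deposited table, so its size and its test do not go together. Across all repeats kept, 3 of 865 were called (0.347%), 2 higher (0.231%) and 1 lower (0.116%). At an unadjusted p under 0.05, 29 repeats were higher (3.35%) and 44 lower (5.09%). Under the other reading these are 1 called higher and 2 called lower, and 44 higher and 29 lower at the unadjusted p. LTR41C, a long terminal repeat of the ERVL family, was called at 0.89 ± 0.22 in the authors' deposited table (DESeq2, adjusted p = 0.0139). ORR1E-INT, the internal part of a MaLR retrotransposon, was called at 0.57 ± 0.16 in the authors' deposited table (DESeq2, adjusted p = 0.0412), a call that ended when p-values were adjusted over the 865 repeats (0.0759).

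Retrotransposons that are abundant at this stage were not called. MT2_MM, the long terminal repeat that drives the retrovirus MERVL and many 2-cell transcripts, stood at -0.31 ± 0.18 in the authors' deposited table (DESeq2, adjusted p = 0.473). MTA_MM, the most counted element and a maternal MaLR repeat, stood at 0.22 ± 0.23 in the authors' deposited table. B2_MM1A, a short interspersed element, stood at -0.53 ± 0.29 in the authors' deposited table, with all 5 B2 elements below 0. The 24 IAP elements, retroviruses silenced through H3K9 methylation in other cells, had a median of -0.19 with 21 below 0, against -0.03 over all repeats. With the other reading the 21 would be above 0, and none of the 24 was called. The most counted IAP element, IAPLTR1_MM, stood at -0.29 ± 0.22 in the authors' deposited table. L1MD_F2, the most counted young LINE-1, stood at -0.11 ± 0.19 in the authors' deposited table. The 95% interval of the log2 fold change lay within 1 either way for 757 repeats (87.5%).

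**Figure D2:**
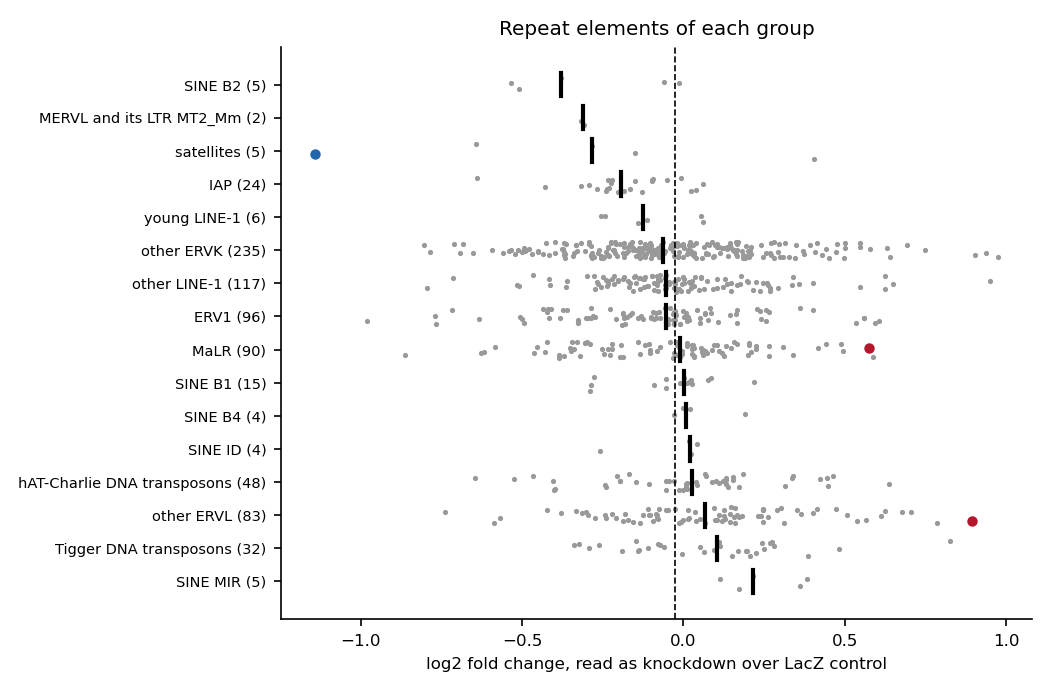
Log2 fold change, read as knockdown over LacZ control (horizontal axis), of each repeat element, by group (number of elements in brackets). Each point is an element, grey when not called, blue called lower and red called higher; the black bar is the median of the group and the dashed line that of all 865 repeats, at -0.03.

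DESeq2 called 140 of the 14830 genes different in knockdown and LacZ control (0.944%). Of these 57 were higher (0.384%) and 83 lower (0.56%), and 71 differed by at least 1 on the log2 scale. At an unadjusted p under 0.05, 990 genes were higher (6.68%) and 1246 lower (8.4%). The 95% interval lay within 1 either way for 10003 genes (67.5%). The calls were spread over the genome, with at most 15 on a chromosome (chromosome 11, of 1169 genes), 1 of 698 on chromosome 17 and 4 of 533 on the X chromosome. Protein-coding genes made up 134 of the 140.

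The genes called higher and lower differed in how strongly they were counted. The 57 higher genes had a median mean count of 47.1, with 38 below 100, and the 83 lower genes one of 773, with 9 below 100. Among the 3440 genes with a mean count of 10 to 30, 18 were called higher and 3 lower, and the median log2 fold change was 0.13. Among the 1127 genes with a mean count of 1000 to 3000, 0 were called higher and 28 lower by DESeq2, with 44 higher and 274 lower at an unadjusted p under 0.05, and the median was -0.17. The 264 genes at 3000 or more had 0 called higher and 3 lower, with a median of -0.14. Medians of several gene lists were therefore also computed after the median of genes of like mean count was taken off. The longest transcripts of called lower genes had a median length of 3418 bases and a GC content of 44.7%, those of called higher genes 2291 bases and 52.5%, and those of all genes 3010.5 bases and 49.0%.

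**Figure D3:**
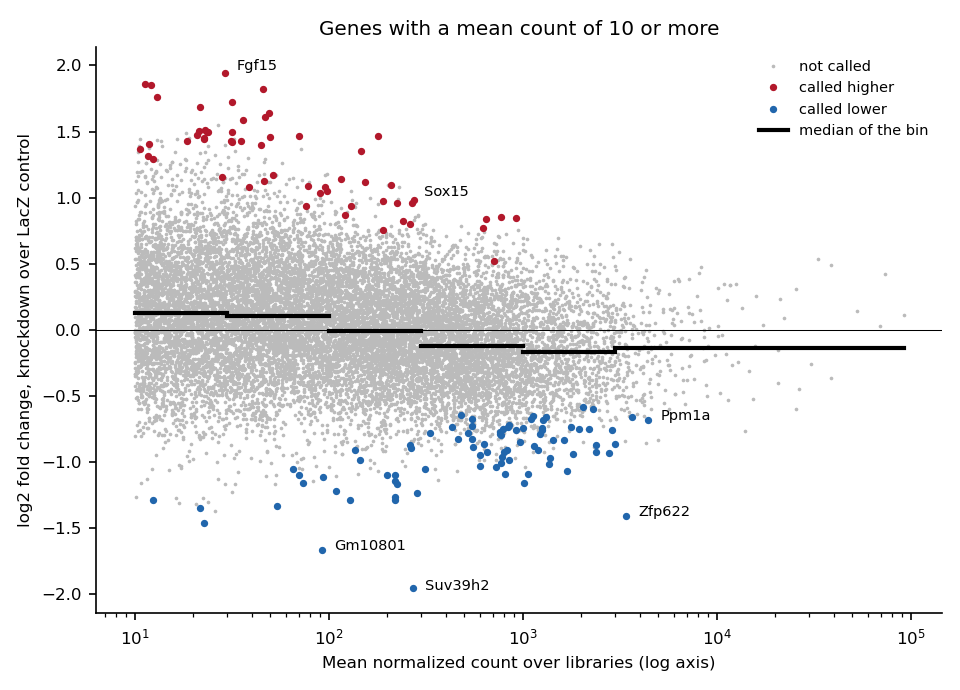
Log2 fold change in knockdown over LacZ control against the mean normalized count (log axis) of the 14830 genes. Grey points were not called, red and blue points were called higher (57) and lower (83), and black lines give the median in bins of mean count, from 0.13 in the lowest bin to -0.17 between 1000 and 3000.

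Genes for making ribosomes lay below 0 at each step of the path, by small amounts, and 9 single members of the 6 lists were called lower. For comparison, 0.56% of all genes were called lower, and 8.4% were lower at an unadjusted p under 0.05. RNA polymerase I transcribes the ribosomal RNA precursor, snoRNPs modify it, the small subunit processome and the large subunit assembly factors fold and trim it, and ribosomal proteins join on the way. All 20 genes of RNA polymerase I and its factors were below 0, with a median of -0.45, and 10 had an unadjusted p under 0.05. None of the 20 was called by DESeq2, and the smallest p-values were those of Polr2k, a subunit shared by the nuclear RNA polymerases, at -0.90 ± 0.27 and of the catalytic subunit Polr1a at -0.81 ± 0.26 in the authors' deposited table. All 15 snoRNP genes were below 0, with a median of -0.54 and 2 called. Znhit3, an assembly factor of box C/D snoRNPs, fell by 0.93 ± 0.24 in the authors' deposited table (DESeq2, adjusted p = 0.0268). Dkc1, the pseudouridine synthase of box H/ACA snoRNPs, fell by 0.92 ± 0.26 in the authors' deposited table (DESeq2, adjusted p = 0.0438).

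Of 45 genes of the small subunit processome, 43 were below 0 with a median of -0.45, 22 were lower at an unadjusted p under 0.05, and 2 were called. They were Utp18, at -1.09 ± 0.24, and Pdcd11, at -0.68 ± 0.19 in the authors' deposited table (DESeq2, adjusted p = 0.00973 and 0.0440). Of 52 large subunit assembly genes, 51 were below 0 with a median of -0.48, 29 were lower at an unadjusted p under 0.05, and 2 were called. Zfp622, which acts late in maturation of the large subunit in the cytoplasm, fell by 1.41 ± 0.32 in the authors' deposited table (DESeq2, adjusted p = 0.0108). Nop53, needed to remove a spacer of the precursor, fell by 0.80 ± 0.18 in the authors' deposited table (DESeq2, adjusted p = 0.0108). No gene of these 4 lists was higher at an unadjusted p under 0.05.

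All 35 small subunit ribosomal protein genes were below 0, from -0.86 to -0.08, with a median of -0.51, and 22 had an unadjusted p under 0.05. Among the 3 called were Rps9 (-0.68 ± 0.17) and Rps25 (-0.65 ± 0.18) in the authors' deposited table, with adjusted p of 0.0257 and 0.0458. Of 49 large subunit protein genes 48 were below 0, with a median of -0.44 and 24 lower at an unadjusted p under 0.05, and none was called by DESeq2. Rpl23 stood at -0.72 ± 0.21 in the authors' deposited table (DESeq2, adjusted p = 0.0511). The 76 mitochondrial ribosomal protein genes had a median of -0.12, with 2 higher and 5 lower at an unadjusted p under 0.05 and none called. Among translation factors (60 genes, median -0.30) the call was 1, the poly(A) binding protein Pabpc1, at -0.76 ± 0.21 in the authors' deposited table (DESeq2, adjusted p = 0.0364).

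These lists sit among strongly counted genes, where more genes were lower at an unadjusted p under 0.05. At mean counts of 300 to 1000, 486 of 3014 genes were lower at that p. At 1000 to 3000, 274 of 1127 were. The list counts above were not corrected for this. After the median of genes of like mean count was taken off, the medians were -0.39 for small subunit proteins, -0.36 for large subunit proteins, -0.35 for the processome, -0.34 for large subunit assembly, -0.49 for snoRNPs and -0.31 for RNA polymerase I. They were -0.10 for mitochondrial ribosomal proteins and -0.16 for translation factors. Ribosomal protein genes have many processed copies in the genome, and reads that the authors' counting split between copies would make their values uncertain. The median log2 fold change of the 407 processed pseudogenes kept was -0.08.

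**Figure D4:**
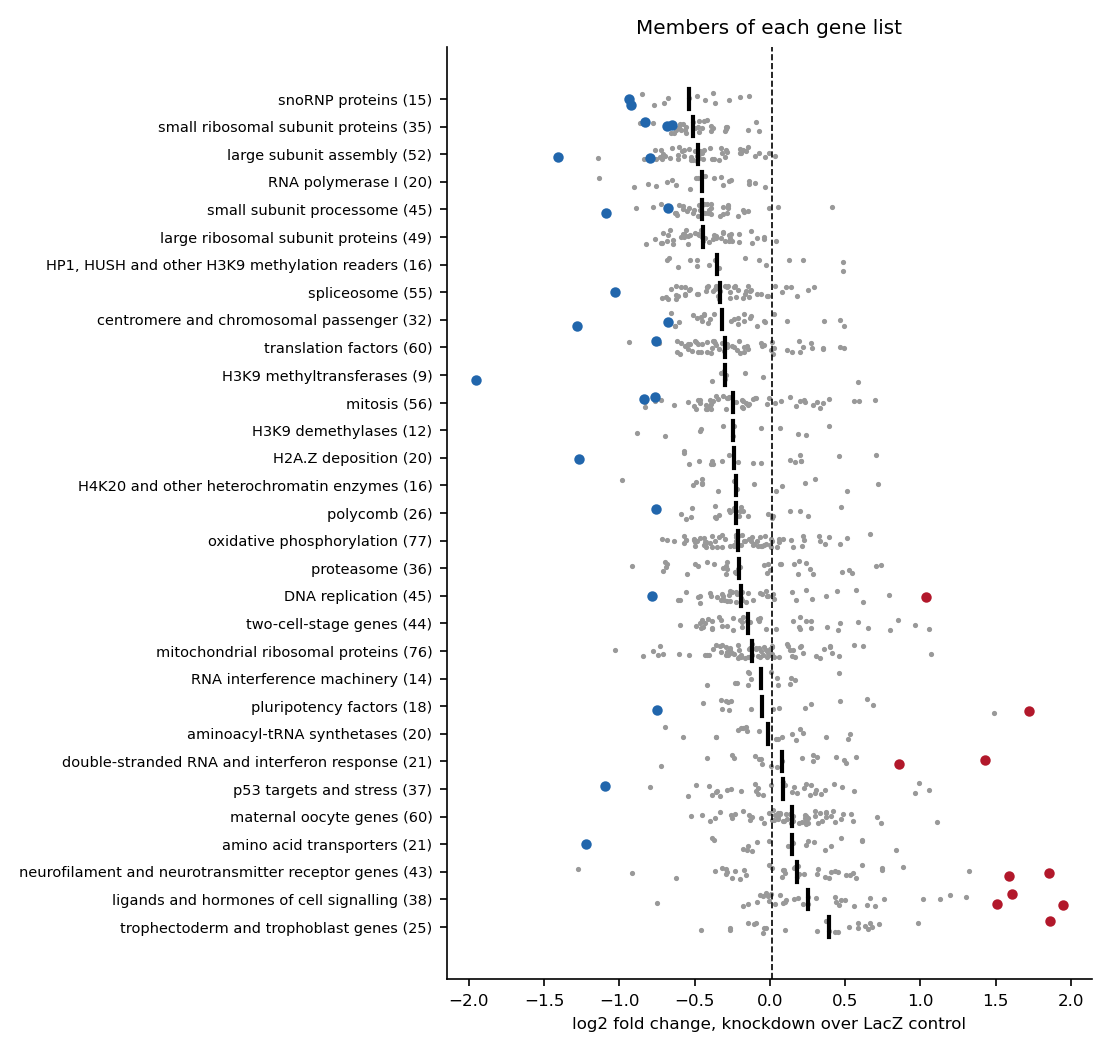
Log2 fold change in knockdown over LacZ control (horizontal axis) of the members of 31 gene lists (number of members in brackets), sorted by the median. Each point is a gene, grey when not called, blue called lower and red called higher; black bars are medians, from -0.54 (snoRNPs) to 0.39 (trophectoderm), and the dashed line is the median of all genes, at 0.01.

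Chromatin factors around H3K9 methylation had 0 calls by DESeq2 outside Suv39h2. Of 16 readers and silencing factors, 12 were below 0 (median -0.35), and at an unadjusted p under 0.05 there were 6 lower and 1 higher. Among all genes 8.4% were lower and 6.68% higher at that p. At mean counts of 300 to 1000, where the median mean count of these 16 lies, 486 of 3014 genes were lower and 140 higher. The median log2 fold change in that range was -0.12. Called lower were 0.962% of genes in that range and 0.56% of all genes. At 100 to 300, as for the median of the demethylases below, 254 of 3317 were lower at the unadjusted p. Fam208a and Pphln1, parts of the HUSH complex that spreads H3K9 methylation over inserted elements, had values of -0.67 ± 0.23 and -0.68 ± 0.23 in the authors' deposited table (DESeq2, adjusted p = 0.107 and 0.127). Of 12 H3K9 demethylases, 4 were lower at an unadjusted p under 0.05 and none higher, with Jmjd1c at -0.88 ± 0.27 and Kdm3a at -0.47 ± 0.20 in the authors' deposited table. Among 16 enzymes of other heterochromatin marks, the deacetylase Sirt1 stood at -0.98 ± 0.32 and the DNA methylation cofactor Dnmt3l at 0.51 ± 0.17 in the authors' deposited table (DESeq2, adjusted p = 0.113 and 0.104). Of 26 polycomb genes 1 was called, Pcgf5, a subunit of a variant repressive complex 1, at -0.76 ± 0.19 in the authors' deposited table (DESeq2, adjusted p = 0.0230). Of 20 genes that deposit the histone H2A.Z, Actr6 was called at -1.27 ± 0.30 in the authors' deposited table (DESeq2, adjusted p = 0.0175).

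Genes of the centromere and of mitosis had 4 calls, all lower. By comparison, 0.56% of all genes were called lower. The share was 0.962% at mean counts of 300 to 1000 and 2.48% at 1000 to 3000. In those ranges 0.166% and 0% were called higher. Of 32 genes of centromeres and the chromosomal passenger complex, 27 were below 0 (median -0.32), 9 were lower at an unadjusted p under 0.05, none was higher, and 2 were called. Oip5, which helps CENP-A, the histone of centromeres, onto DNA, was called at -1.28 ± 0.28 in the authors' deposited table (DESeq2, adjusted p = 0.0123). Sgo2a, a protector of cohesion between sister centromeres, was called at -0.67 ± 0.18 in the authors' deposited table (DESeq2, adjusted p = 0.0268). Of 56 mitosis genes (median -0.25), Cdk1, the kinase that starts mitosis, and Nusap1, a spindle protein, were called, at -0.76 ± 0.21 and -0.84 ± 0.22 in the authors' deposited table (DESeq2, adjusted p = 0.0410 and 0.0285). At an unadjusted p under 0.05, 2 of the 56 mitosis genes were higher and 18 lower. Exons of Oip5 and Nusap1 overlap on opposite strands, so the calls of this pair may rest in part on the same reads. Less the median of like-counted genes, the medians were -0.20 for the centromere list and -0.09 for mitosis.

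DNA replication genes (45, median -0.19) had 1 call in each direction: the polymerase delta subunit Pold2 rose by 1.04 ± 0.26 and the primase subunit Prim2 fell by 0.78 ± 0.21 in the authors' deposited table (DESeq2, adjusted p = 0.0225 and 0.0410). Of 55 spliceosome genes (median -0.33, or -0.20 after like-counted genes), 20 were lower and none higher at an unadjusted p under 0.05. By the same measure 8.4% of all genes were lower, and 486 of 3014 at mean counts of 300 to 1000. Sf3b6, a subunit of the U2 snRNP, was called at -1.03 ± 0.28 in the authors' deposited table (DESeq2, adjusted p = 0.0456). Son, which holds nuclear speckles together and helps splicing of weak introns, fell by 0.87 ± 0.20 in the authors' deposited table (DESeq2, adjusted p = 0.0108), with exons that overlap Donson on the other strand.

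Further genes with the smallest p-values among those lowered came from various pathways. Cebpz, a nucleolar protein of large subunit assembly, fell by 0.93 ± 0.19 in the authors' deposited table (DESeq2, adjusted p = 0.00449). Abt1, a nucleolar factor of small subunit processing, fell by 1.01 ± 0.21 in the authors' deposited table (DESeq2, adjusted p = 0.00449). Both are ribosome factors that the lists above did not hold. Pi4kb, a phosphatidylinositol kinase of the Golgi, fell by 1.16 ± 0.25 and Cul3, the scaffold of a family of ubiquitin ligases, by 1.07 ± 0.23 in the authors' deposited table (DESeq2, adjusted p = 0.00449 and 0.00511). Zfp131 fell by 0.97 ± 0.22 and Rlf, also a zinc finger protein, by 0.96 ± 0.22 in the authors' deposited table (DESeq2, adjusted p = 0.00511 and 0.0108). The zinc exporter Slc30a1 fell by 1.10 ± 0.27 in the authors' deposited table, and Eid2 and Zcchc10 fell by 1.33 ± 0.31 and 0.91 ± 0.21 (DESeq2, adjusted p = 0.0132 for all 3). Of the 296 zinc finger genes with Zfp numbers, 4 were called lower and 0 higher by DESeq2 (10 higher and 32 lower at an unadjusted p under 0.05).

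The called gene with the highest mean count was the phosphatase Ppm1a (4439), at -0.68 ± 0.19 in the authors' deposited table (DESeq2, adjusted p = 0.0456). The phosphate transporter Slc34a2 fell by 0.87 ± 0.22 in the authors' deposited table (DESeq2, adjusted p = 0.0268). Ppat, the first enzyme of purine synthesis, fell by 0.60 ± 0.17 and Wsb1, a substrate adaptor of a ubiquitin ligase, by 0.75 ± 0.21 in the authors' deposited table (DESeq2, adjusted p = 0.0438 and 0.0456). The processed pseudogene Gm5612 stood at -0.66 ± 0.18 in the authors' deposited table (DESeq2, adjusted p = 0.0441), and its reads may be shared with its parent gene. These 5 were lowered by less than 1 on the log2 scale, as were 54 of the 83 genes called lower.

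Genes called higher mostly had low mean counts, and 6 of the 57 came from the lists of ligands, neuronal genes and trophoblast genes. Those lists hold 38, 43 and 25 genes, and 0.384% of all genes were called higher. At mean counts of 10 to 30, 18 genes were called higher and 3 lower. At 30 to 100, 20 were called higher and 6 lower. Scin, a protein that severs actin filaments, had the smallest p-value among the genes called higher and rose by 1.47 ± 0.27 in the authors' deposited table (DESeq2, adjusted p = 3.01e-04). Sparc, a matrix glycoprotein of the parietal endoderm, rose by 1.82 ± 0.35 in the authors' deposited table (DESeq2, adjusted p = 0.00449). Lgals1, a galectin, rose by 1.35 ± 0.32 and Smurf1, a ubiquitin ligase of BMP signalling, by 1.08 ± 0.25 in the authors' deposited table (DESeq2, adjusted p = 0.0172 and 0.0108). Itpripl1 rose by 1.46 ± 0.34, the adhesion gene Dscam by 1.17 ± 0.28 and Mab21l2 by 1.42 ± 0.34 in the authors' deposited table (DESeq2, adjusted p = 0.0132, 0.0164 and 0.0132).

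Of 38 genes of signalling ligands and hormones, 8 were higher and none lower at an unadjusted p under 0.05, with a median of 0.25, and 3 were called. Fgf15 rose by 1.94 ± 0.39, Dhh, a hedgehog ligand, by 1.61 ± 0.39 and Sct, which encodes secretin, by 1.51 ± 0.39 in the authors' deposited table (DESeq2, adjusted p = 0.00784, 0.0232 and 0.0405). The mean counts of the 3 were 29.2, 47.1 and 21.4, and 70 of the 108 ligand genes in the table did not reach a mean count of 10. Median mean counts of the ligand, neuronal and trophoblast lists were 48.5, 31.5 and 85.0. The 3668 genes with a mean count of 30 to 100 had a median log2 fold change of 0.11. Among these 3668, 313 were higher and 108 lower at an unadjusted p under 0.05. Medians of the 3 lists are given without taking off that of like-counted genes. Of 43 neurofilament and neurotransmitter receptor genes (median 0.18), Gabra4 and Nefl were called, at 1.85 ± 0.39 and 1.59 ± 0.39 in the authors' deposited table (DESeq2, adjusted p = 0.0108 and 0.0132). Both overlap exons of a neighbour of the same family on the other strand, Gabrb1 and Nefm. In all, 44 of the 140 called genes have exons overlapped on the opposite strand, as have 4994 of all 14830.

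Trophectoderm and trophoblast genes (25, median 0.39) had 1 call, Gcm1, the transcription factor of syncytiotrophoblast, at 1.86 ± 0.40 in the authors' deposited table (DESeq2, adjusted p = 0.00385). With Gcm1, 4 of the 25 were higher and none lower at an unadjusted p under 0.05. The median rests on weakly counted members: over the 11 with a mean count of 100 or more it was -0.04. Of 18 pluripotency genes, Utf1 rose by 1.72 ± 0.38 and Fbxo15 fell by 0.75 ± 0.19 in the authors' deposited table (DESeq2, adjusted p = 0.0108 and 0.0258), and the list's median was -0.05. Sox15, a relative of Sox2 in pluripotent cells, rose by 0.96 ± 0.21 in the authors' deposited table (DESeq2, adjusted p = 0.0108). The kinase gene Ick, active in cilia, rose by 1.14 ± 0.28 in the authors' deposited table (DESeq2, adjusted p = 0.0164).

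For several of the genes called higher, the LacZ control stood below non-injected embryos. In the authors' deposited table of LacZ control against non-injected, Gcm1 stood at -1.09 ± 0.40 and Tmem37 at -1.35 ± 0.38, both called lower (DESeq2, adjusted p = 0.0183 and 0.0284). In knockdown against non-injected embryos neither was called in the authors' deposited table, at 0.76 ± 0.40 and 0.29 ± 0.38. Tmem37 stood at 1.64 ± 0.37 in knockdown over LacZ control in the authors' deposited table (DESeq2, adjusted p = 0.0131). Sox15 and Ick had values of the same pattern, -0.58 ± 0.23 and -0.70 ± 0.30 in LacZ control over non-injected in the authors' deposited table, neither called. By contrast Scin, Sparc, Fgf15, Gabra4, Nefl and Itpripl1 had values between -0.05 and 0.18 in LacZ control over non-injected and were called in both knockdown comparisons in the authors' deposited tables. Over all genes, 93 were called in LacZ control against non-injected (0.627%) and 2268 in knockdown against non-injected (15.3%). The comparisons share libraries, and the difference between these counts was not tested. Some genes called lower showed the opposite pattern, with values above 0 in LacZ control over non-injected. Eid2 and Zcchc10 stood there at 0.46 ± 0.33 and 0.44 ± 0.23, and in knockdown over non-injected at -0.88 ± 0.33 and -0.46 ± 0.22 in the authors' deposited tables, called in neither (DESeq2, adjusted p = 0.0516 and 0.164 in the second).

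**Figure D5:**
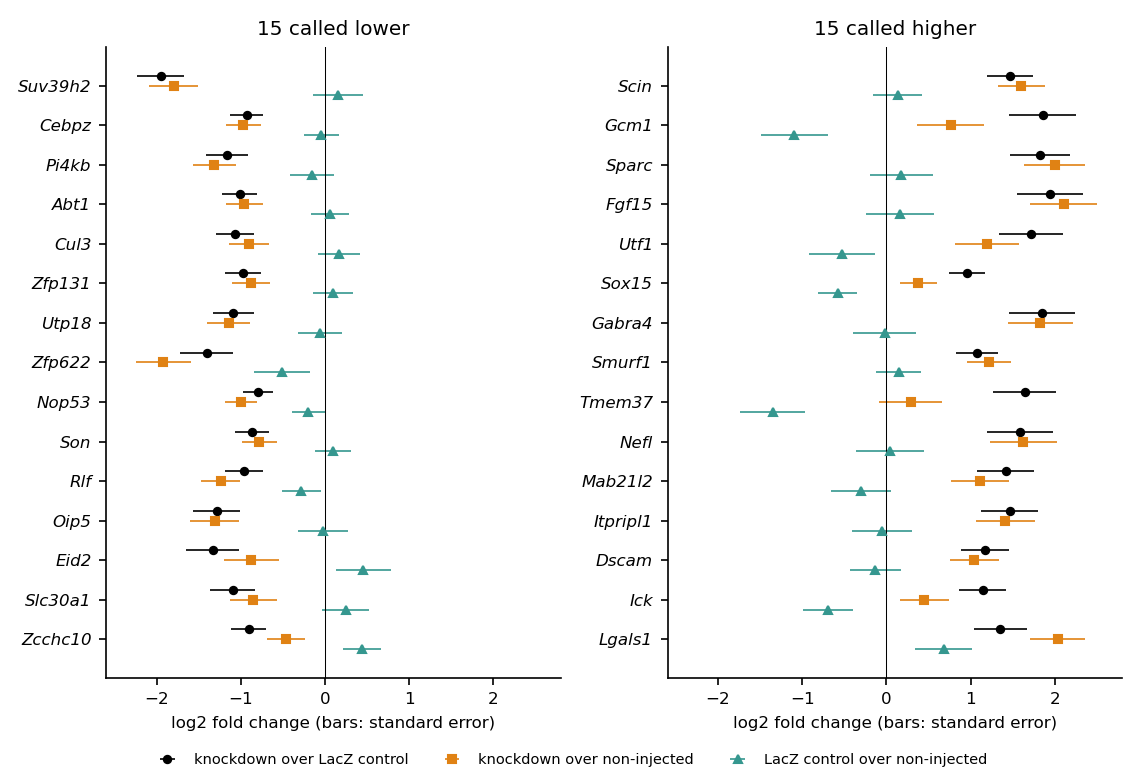
Log2 fold changes (bars give the standard error) of the 15 genes with the smallest p-values in each direction, predicted genes aside, in knockdown over LacZ control (circles), knockdown over non-injected (squares) and LacZ control over non-injected (triangles). Triangles lie near 0 for Scin and Sparc, and at -1.09 and -1.35 for Gcm1 and Tmem37.

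Genes that mark the stage of the embryo were not called, where 0.944% of all genes were. Among all genes 6.68% were higher and 8.4% lower at an unadjusted p under 0.05. At mean counts of 300 to 1000, where the median mean counts of both lists lie, 140 of 3014 genes were higher and 486 lower. The 44 genes of the 2-cell stage had a median of -0.14, or -0.05 after like-counted genes, with 4 higher and 4 lower at an unadjusted p under 0.05 and 0 called by DESeq2. Btg2 stood at 0.96 ± 0.28 and Eif1ad at -0.60 ± 0.20 in the authors' deposited table (DESeq2, adjusted p = 0.0629 and 0.114). The 60 maternal oocyte genes had a median of 0.14, or 0.29 after like-counted genes, with 6 higher and none lower at an unadjusted p under 0.05 and 0 called by DESeq2. Nobox, an oocyte transcription factor, stood at 0.74 ± 0.26 and Khdc3, part of the subcortical maternal complex, at 0.71 ± 0.25 in the authors' deposited table (DESeq2, adjusted p = 0.129 and 0.134).

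The response to double-stranded RNA was measured in both groups, since both received it. Among all genes 0.384% were called higher, 0.944% were called in either direction and 15.1% had an unadjusted p under 0.05. Of 21 genes of the double-stranded RNA and interferon response 2 were called, both higher: Ifitm1 at 1.43 ± 0.40 and Oas1c, of the oligoadenylate synthetase family, at 0.86 ± 0.24 in the authors' deposited table (DESeq2, adjusted p = 0.0410 and 0.0438). The list's median was 0.08. For LacZ control over non-injected the authors' deposited table lists -0.96 ± 0.40 and 0.42 ± 0.26 for the pair, neither called. The 14 genes of the RNA interference machinery had 0 calls by DESeq2, 0 members with an unadjusted p under 0.05 and a median of -0.06.

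The remaining lists held single calls or none. Among all genes 0.56% were called lower, and 6.68% were higher and 8.4% lower at an unadjusted p under 0.05. At mean counts of 300 to 1000, as for the medians of the proteasome and synthetase lists, 140 of 3014 were higher and 486 lower. At 100 to 300, as for oxidative phosphorylation, 240 of 3317 were higher and 254 lower. Of 37 p53 targets and stress genes, Gadd45a was called lower, at -1.10 ± 0.27 in the authors' deposited table (DESeq2, adjusted p = 0.0132). Of 21 amino acid transporters, Slc7a5, which carries large neutral amino acids, was called lower, at -1.22 ± 0.31 in the authors' deposited table (DESeq2, adjusted p = 0.0268). Oxidative phosphorylation (77 genes, median -0.21), the proteasome (36, -0.21) and aminoacyl-tRNA synthetases (20, -0.02) had 0 calls by DESeq2, with 0, 3 and 1 members higher and 12, 9 and 1 lower at an unadjusted p under 0.05.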

How the data were processed

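The deposited tables hold the authors' own comparisons. Per the submitters' processing notes, STAR 2.5.2b, SAMtools, HTSeq 0.9.1, DESeq2 1.18.1 and GRCm38.p5 were used; unwanted-variation factors (RUVseq) and shrinkage are known only from the tables' names. Per the file headers, each row has a mean normalized count (a signal), a log2 fold change and the standard error of it, a Wald statistic (a score), and a p-value with its adjusted p. The statistic is not that of the shrunken fold change: their signs differ in 380 of 14830 genes. Adjusted p-values of the repeat table differ by up to 0.217 from a Benjamini-Hochberg adjustment of the 858 repeats that have one, and the sources used here do not say how they were made. There were 0 columns of single libraries, so no test could be refitted.

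Groups come from the label of what was injected. Rows with a mean count of 10 or more were kept. Identifiers were matched to GENCODE vM21 (14800 of 14830) ignoring the version, with Python 3.11.15 and pandas 2.3.3. The 34 gene lists, 16 repeat groups and members were chosen with earlier results of these data known, so lists are described by counts and medians without a test. Named genes are the H3K9 methyltransferases and neighbours of Suv39h2, the 15 smallest p-values in each direction, the 10 called genes with the highest mean count, and called members of each list or its 2 smallest p-values; 1 called gene of these is not reported here. Promoter composition was not compared, because the RefSeq promoter table held 70.7% of the genes, too few. The adjustment step was tested on simulated data. Other adjustments, minimum counts and thresholds were tried.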

Additional observations from a re-analysis of the deposited data

How the results depend on the processing

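No paired analysis was possible because the tables hold no values of single libraries, and leaving out each library was not run for the same reason. Adjusting over every row with a p-value gave 84 calls among genes (37 higher, 47 lower), all among the 140, and ended 18 of the 61 calls that the naming rule picked, Cdk1 (0.0625), Dkc1 (0.0692) and Ifitm1 (0.0630) among them, and 1 of the 2 calls among satellite genes, Gm10717 (0.0797), while Suv39h2 kept its call under both other adjustments. Adjusting over the genes kept gave 164 calls (71 higher, 93 lower), including all 140, and added Rpl23 (0.0486). A minimum mean count of 100 left 93 calls, 19 higher and 74 lower, so the split between directions depends on that minimum. An adjusted p under 0.1 gave 460 calls (186 and 274) and one under 0.01 gave 14 (6 and 8). A log2 size of at least 1 left 71, 42 higher and 29 lower. Among repeats, with signs as read, the adjusted p under 0.1 gave 8 calls (5 lower) and under 0.01 gave 0, with 0 higher and 0 lower (29 and 44 at an unadjusted p under 0.05 by DESeq2). Adjusting over every repeat or over those kept left 1 repeat higher, and the log2 size of 1 left 1 repeat, with 0 higher. Of 50 list and group medians 9 changed sign under at least 1 alternative, among them the trophectoderm list (-0.04 at a mean count of 100 or more) and, with no minimum count, the sperm list (0.07, 9 genes). Depth per library is unknown, and 32.5% of genes had an interval reaching past a log2 fold change of 1.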

Other observations

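Called genes outside the lists were read after their values had been seen, and are described only. Among those called lower in the authors' deposited table were the paraspeckle protein Sfpq (-1.05 ± 0.27), Khdrbs1 (-0.92 ± 0.22), Hnrnpd (-1.14 ± 0.29), Syncrip (-0.75 ± 0.20) and the splicing kinase Clk1 (-0.83 ± 0.23). No list of such genes was counted. In knockdown against non-injected embryos Khdrbs1 (-1.18) and Syncrip (-0.86) were called in the authors' deposited table, and Sfpq (-0.26), Hnrnpd (-0.71) and Clk1 (-0.43) were not. For these 3 the authors' deposited table of LacZ control over non-injected gave 0.79, 0.44 and 0.39, none called. Smarca5, the motor of ISWI nucleosome remodellers, stood at -0.94 ± 0.24 and Ranbp2, a nucleoporin, at -1.04 ± 0.27 in the authors' deposited table, both called lower. Ribosome-related genes outside the lists were Fau (-0.79 ± 0.21), which encodes a small subunit protein fused to a ubiquitin-like one, Dimt1 (-0.78 ± 0.20), which methylates 18S ribosomal RNA, and Utp14b (-0.85 ± 0.23), all called lower in the authors' deposited table. Mcl1, which protects cells from apoptosis, stood at -0.83 ± 0.22 in the authors' deposited table, also called.

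Genes called higher outside the lists included metabolic and epithelial genes in the authors' deposited table: Fah (1.46 ± 0.34), the last enzyme of tyrosine breakdown, and Cldn18 (1.44 ± 0.37), a tight junction claudin. The decapping factor Dcp1a (0.84 ± 0.21) had the highest mean count among the called higher, at 921 in the authors' deposited table.

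Below the minimum mean count, 13 of 18198 genes had an unadjusted p below 1e-06, all of them higher, against 4 of 14830 above it. The most extreme was Gm14152, with a mean count of 3.19, a shrunken log2 fold change of 0.49 ± 0.30 and an unadjusted p of 1.03e-20 in the authors' deposited table. The tables give these rows no adjusted p, and which libraries hold the counts was not tested.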
